A study of Pleurotus ostreatus with 53 samples.

Results

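Small RNA of the fruitbody was compared with small RNA of the mycelium in N001, a dikaryotic strain of the oyster mushroom Pleurotus ostreatus, that is, a strain whose cells carry a pair of unlike nuclei. The comparison used 3 fruitbody and 3 mycelium libraries of total RNA, chosen by their labels, out of 18 small RNA libraries and 53 libraries of all kinds in the series. The fruitbody is the mature mushroom, and the mycelium is the vegetative network of hyphae that precedes it. The groups had the strain in common and differed in tissue; the series description calls the replicates biological. The other small RNA libraries came from N001 primordium, the young fruiting initial, and from mycelium of the dikaryon labelled N001_HyB and of the monokaryons PC15 and PC9. Counts per gene and per copy of a transposable element (TE) were given for 11828 genes and 1051 TE copies of 79 families. Each gene carries only a number, and none of these numbers matched the reference table used here, so no gene is given a name or function and no tissue marker could be checked.

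Small RNAs guide Argonaute proteins to RNAs of matching sequence, and in fungi they are known above all for silencing TEs and other repeats. Methylation of cytosine in CG sites is a further mark of silent TEs in mushroom-forming fungi. Small RNA libraries also take up breakdown products of abundant messenger RNAs. The counts carry no read length and no strand, so silencing RNAs and breakdown products cannot be told apart in them.

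Gene plus TE reads numbered 1214614, 191411 and 544302 in fruitbody replicates 1, 2 and 3, against 660455, 753531 and 745463 in mycelium replicates 1, 2 and 3. Levels below are reads per 1000000 gene plus TE reads (RPM). A single read was thus worth 5.22 RPM in fruitbody replicate 2, the shallowest library, and 0.823 to 1.84 RPM in the other 5 libraries. Low depth was therefore a limit of fruitbody replicate 2 above all, since fruitbody replicate 1 was the deepest of the 6 libraries. Mycelium replicate 1 stood apart from its group: the chi-square per degree of freedom of its counts was 28.7 and 29.8 against mycelium replicates 2 and 3, which differed from each other by 3.47. Its log2 levels over 4988 genes and TE copies were also closer to the fruitbody mean (Pearson's r of 0.742) than those of mycelium replicates 2 and 3 (0.657 and 0.640). Results that rest on it are given with and without it. Replicate 1 also had the higher chi-square per degree of freedom in fruitbody (16.3 and 16.6, against 9.37 between replicates 2 and 3). The same held in primordium (20.6 and 18.4, against 3.58). For a given difference this chi-square grows with read number, and replicate 1 was the deepest library of both fruitbody and primordium. By Pearson's r of log2 levels, fruitbody replicate 1 did not stand apart (0.825 and 0.856, against 0.835). Calls without replicate 1 of every group are given below.

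The fruitbody libraries held a larger part of their small RNA in TE copies and in CG-methylated genes, and a smaller part in genes without methylation. TE copies took 39.8%, 38.6% and 35.0% of gene plus TE reads in the fruitbody libraries, against 30.8%, 30.6% and 29.6% in the mycelium libraries. The means were 37.8% ± 2.45 in fruitbody and 30.3% ± 0.630 in mycelium (SD, n = 3 each), and the groups did not overlap. An exact two-sided permutation test gave p = 0.1, the smallest that 3 against 3 libraries allow, and 0.175 after adjustment over this share and 6 TE classes.

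The 1002 genes with over 10% CG methylation in mycelium held 34.2%, 33.4% and 30.7% of all reads in the fruitbody libraries, against 24.4%, 22.2% and 21.8% in the mycelium libraries. The 10648 genes at or under 10% held 25.0%, 27.0% and 33.5% in fruitbody, against 43.9%, 44.7% and 46.3% in mycelium. Neither share overlapped between the groups. Much of the methylated share lay in a few genes. Genes 165473, 168622, 157625 and 168614 averaged 80090, 45061, 38004 and 36377 RPM in fruitbody. In mycelium they averaged 66148, 26866, 24361 and 18283 RPM. None of them had an adjusted p under 0.05 by edgeR, and gene 165473 lies inside a TIR1 copy. TE copies and methylated genes together, leaving out the 21 genes that overlap a TE copy, took 68.0% ± 4.56 of the remaining reads in fruitbody and 49.8% ± 1.51 in mycelium. The 10% limit was chosen after the methylation values were seen.

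**Figure D1:**
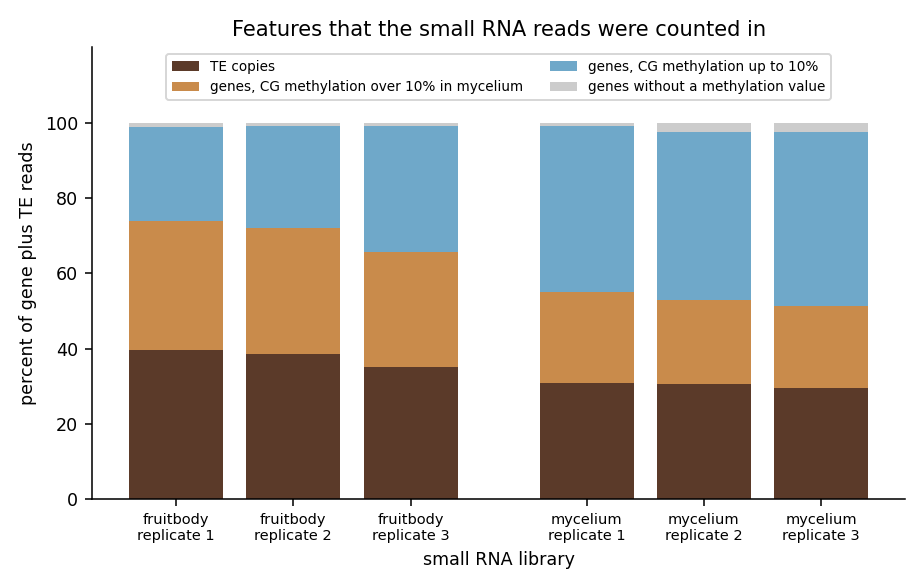
Percent of gene plus TE reads (vertical axis) that fell in TE copies, in genes with over 10% CG methylation in mycelium, in genes at or under 10% and in genes without a methylation value, for each of the 3 fruitbody and 3 mycelium small RNA libraries. The TE part is 35.0% to 39.8% in fruitbody and 29.6% to 30.8% in mycelium, and the part in genes at or under 10% is 25.0% to 33.5% in fruitbody and 43.9% to 46.3% in mycelium.

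Among TE copies, 2 classes carried nearly all small RNA: Gypsy elements, which move through an RNA copy and carry long terminal repeats, and TIR elements, which are DNA transposons with terminal inverted repeats. The 792 Gypsy copies held 209316, 229276 and 184069 RPM in the fruitbody libraries, against 161021, 141978 and 137693 RPM in the mycelium libraries. The 10 TIR copies held 171338, 135682 and 150108 RPM in fruitbody, against 134174, 115671 and 111430 RPM in mycelium. Both classes lay higher in every fruitbody library. The 35 copies of DIRS, a retrotransposon class that integrates through a tyrosine recombinase, were also higher in every fruitbody library, at 696 ± 79.0 RPM against 486 ± 91.6 RPM in mycelium. Each of these 3 classes had an exact permutation p of 0.1 (adjusted 0.175). Within TE reads alone, Gypsy took 54.9% ± 3.97 in fruitbody and 48.4% ± 3.43 in mycelium without overlap, whereas TIR took 40.4% ± 4.49 and 39.7% ± 3.43 with overlap. DIRS took 0.184% ± 0.0156 of TE reads in fruitbody and 0.160% ± 0.0311 in mycelium, likewise with overlap. The fruitbody to mycelium ratio of TIR was 1.27 on gene plus TE totals and turned to 0.941 and 0.899 with TMM and DESeq2 scaling inside the TE table. With the same scalings the ratio of Gypsy went from 1.41 to 1.05 and 1.004, and that of DIRS from 1.43 to 1.06 and 1.02. The rise of these classes thus depended on the scaling.

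Copia retrotransposons, the HELPO elements (Helitrons, rolling-circle DNA transposons) and LINE elements (retrotransposons without long terminal repeats) overlapped between the groups in RPM. Copia copies held 10705, 13798 and 10502 RPM in the fruitbody libraries, against 6806, 35555 and 31330 RPM in the mycelium libraries. HELPO copies held 4523, 4132 and 3561 RPM in fruitbody, against 3231, 10655 and 13439 RPM in mycelium. In both classes mycelium replicate 1 lay below every fruitbody library while mycelium replicates 2 and 3 lay above all of them. LINE copies averaged 1450 ± 449 RPM in fruitbody and 1933 ± 140 RPM in mycelium (exact permutation p = 0.2, adjusted 0.28). Within TE reads alone, LINE took 0.387% ± 0.127 in fruitbody and 0.637% ± 0.0337 in mycelium, without overlap.

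**Figure D2:**
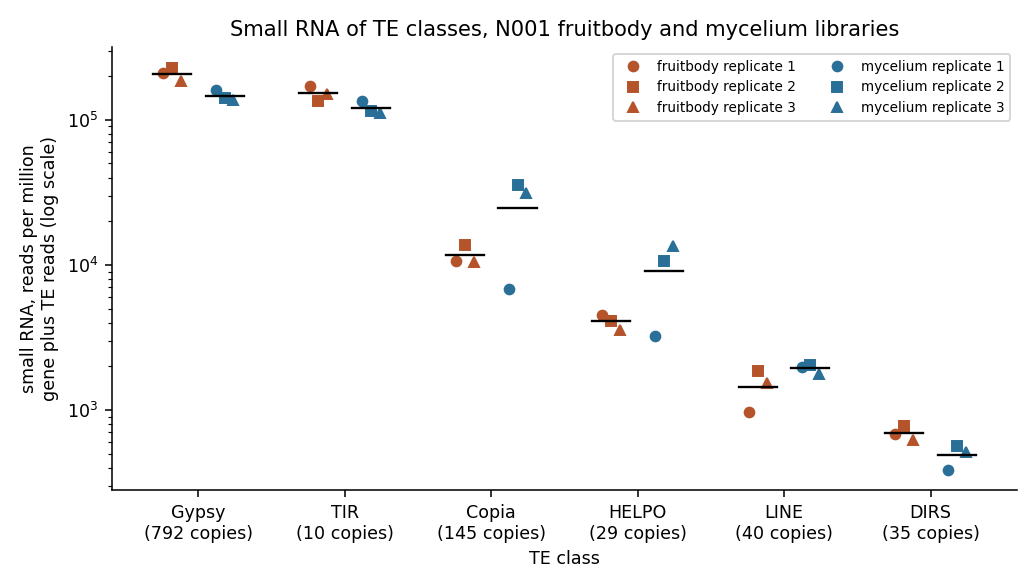
Small RNA of the 6 TE classes in RPM (log scale) in each fruitbody and mycelium library; symbols mark the replicates and black lines the group means. Gypsy, TIR and DIRS are higher in all 3 fruitbody libraries, and for Copia and HELPO mycelium replicate 1 lies below the fruitbody libraries.

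Few families supplied this small RNA. The TIR1 family, whose copies are all the TIR copies listed, and Gypsy_5, Gypsy_7, Gypsy_3, Gypsy_1, Copia_1 and Gypsy_29 each averaged at least 1% of gene plus TE reads in one of the groups. Gypsy_5 held 72933, 75623 and 74168 RPM in the fruitbody libraries, against 58555, 37813 and 35811 RPM in the mycelium libraries. Gypsy_3 held 16185, 27376 and 16947 RPM in fruitbody, against 14944, 7698 and 7724 RPM in mycelium. The fruitbody libraries were higher throughout, by a ratio of means of 1.69 for Gypsy_5, 1.99 for Gypsy_3 and 1.67 for Gypsy_7. These 3 ratios stayed above 1 under each scaling tried, from 1.19 for Gypsy_7 with DESeq2 size factors inside the TE table upward, and without mycelium replicate 1 they were 2.02, 2.62 and 1.47. Within TE reads alone, Gypsy_7 took 7.27% ± 1.12 in fruitbody and 5.43% ± 1.35 in mycelium without overlap, whereas Gypsy_5 (19.7% ± 1.41 in fruitbody and 14.5% ± 3.94 in mycelium) and Gypsy_3 (5.34% ± 1.58 in fruitbody and 3.33% ± 1.33 in mycelium) overlapped. Most of the Gypsy_5 and Gypsy_3 signal came from a single copy of each family. The Gypsy_5 copy, on scaffold 1, averaged 65126 RPM in fruitbody and 35339 RPM in mycelium (edgeR adjusted p = 0.841). The Gypsy_3 copy, on scaffold 6, averaged 13531 RPM in fruitbody and 6391 RPM in mycelium (edgeR adjusted p = 0.736). Over all 79 families, 28 were higher in every fruitbody library, 1 was lower in every fruitbody library and 50 overlapped.

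Copia_1 and Gypsy_29 were low in mycelium replicate 1 and high in the other mycelium libraries. Copia_1 held 4113, 5125 and 4707 RPM in the fruitbody libraries, against 2946, 20059 and 17244 RPM in the mycelium libraries. Gypsy_29 held 1884, 2743 and 1712 RPM in fruitbody, against 1566, 16936 and 15869 RPM in mycelium. The fruitbody to mycelium ratio was 0.346 for Copia_1 and 0.184 for Gypsy_29, and without mycelium replicate 1 it was 0.249 and 0.129. Nearly all of the Gypsy_29 signal came from a copy on scaffold 5, positions 380083 to 398290, with 1721, 2471 and 1606 RPM in fruitbody, against 1087, 16719 and 15663 RPM in mycelium. A HELPO2 copy, at positions 387607 to 392576, lies inside this copy, so reads may be counted in both.

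The quasi-likelihood test of edgeR was applied to single copies, with Benjamini-Hochberg adjustment. Of 502 copies with enough reads, 0 passed an adjusted p of 0.05 (0% of those tested), 58 had an unadjusted p under 0.05 (43 higher and 15 lower in fruitbody), and the smallest adjusted p was 0.247. DESeq2 on the same totals called 13 copies, 9 higher and 4 lower. Without replicate 1 of every group, an alternative added after the data were seen, edgeR called 64 copies higher and 25 lower. The median log2 fold change over the 502 copies was 0.39, and -0.07 with TMM inside the TE table. The levels of 108 copies (21.5%) were higher in every fruitbody library and those of 22 (4.38%) lower in every one.

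The copy with the most small RNA was a TIR1 element on scaffold 2, positions 1605772 to 1609503, which held 102249 ± 14660 RPM in fruitbody and 84605 ± 9444 RPM in mycelium and overlapped between the groups. A Gypsy_5 copy on scaffold 1, positions 3815535 to 3824268, had 61919, 67222 and 66235 RPM in the fruitbody libraries, against 51901, 28116 and 26001 RPM in the mycelium libraries. It contains a further TIR1 copy, at positions 3818119 to 3819721, and the treatment of reads that fall in nested copies is not given in the sources used here; 403 of the 1051 copies overlap another.

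The copies with the smallest unadjusted p were picked after their values were seen. A HELPO2 copy on scaffold 8, positions 1367660 to 1374048, had 42.0, 0 and 0 RPM in the fruitbody libraries, against 450, 1813 and 2431 RPM in the mycelium libraries (log2 fold change -6.63 ± 1.58 SE, edgeR adjusted p = 0.247). This copy passed without fruitbody replicate 1 (adjusted p = 0.0206). A Gypsy_18 copy on scaffold 9, positions 1123506 to 1133402, lay the other way, with 710, 763 and 505 RPM in fruitbody, against 124, 94.2 and 57.7 RPM in mycelium (log2 fold change 2.84 ± 0.89 SE, edgeR adjusted p = 0.299). A Gypsy_6 copy on scaffold 4, positions 2728393 to 2729044, had no read in any fruitbody library, against 27, 32 and 31 reads in the mycelium libraries. Set against a floor of 3 reads over the fruitbody group, its level was at least 27.1-fold lower in fruitbody, a bound that covers counting error only. Its log2 fold change was -8.45 ± 2.57 SE (edgeR adjusted p = 0.299). CG methylation of these 3 copies was 73.1% ± 8.26 and 72.6% ± 5.74 for HELPO2, 61.2% ± 2.59 and 62.9% ± 1.37 for Gypsy_18 and 18.3% ± 3.59 and 16.2% ± 2.61 for Gypsy_6 (fruitbody and then mycelium).

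Across TE copies the difference in small RNA had correlations near 0 with the other readouts. Pearson's r between the small RNA log2 fold change and the difference in log2(mRNA RPM + 1) was 0.02 over 502 copies, and with the difference in CG methylation it was -0.02 over 481 copies. These copies share libraries and reads of nested elements, so the values are descriptive. Median methylation was 60.9% in fruitbody and 60.2% in mycelium for the 108 copies with higher small RNA in every fruitbody library, beside 57.8% and 56.8% over all tested copies. Of the 108, mRNA was higher in every fruitbody library in 5 and lower in 8, beside 4.58% and 4.78% of tested copies. Methylation was higher in every fruitbody library in 13 of 104 with a value and lower in 2, beside 7.69% and 1.04%. The median mRNA of the tested copies was 0.0138 RPM in fruitbody and 0.0146 RPM in mycelium. Adding 1 to levels this low brings most mRNA differences close to 0, so the r with mRNA says little about most copies. Within each tissue, small RNA per kb and mRNA of the copies had a Spearman's rho of -0.32 in fruitbody and -0.42 in mycelium. The mRNA was in RPM and, unlike the small RNA, was not divided by copy length. How far copy length and the low mRNA levels enter these rho values was not tested.

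In genes, small RNA changed in both directions. Of 4711 genes with enough reads, 172 (3.65%) rose and 597 (12.7%) fell in fruitbody at an adjusted p of 0.05 by the same test, 769 (16.3%) in all. Levels were higher in every fruitbody library in 274 genes (5.82%) and lower in every one in 2144 (45.5%). The median log2 fold change was 2.93 for the genes that rose and -2.43 for those that fell, beside -0.78 over all tested genes. With TMM inside the gene table, whose factors shift fruitbody over mycelium by 0.76 on the log2 scale, the median over all tested genes was -0.04 and 322 genes rose and 360 fell; these counts include 159 of the 172 and 349 of the 597. The number that fell came to 277, 288 and 312 without fruitbody replicate 1, 2 or 3, and to 546, 352 and 300 without mycelium replicate 1, 2 or 3. The number that rose came to 147, 125 and 152 without those fruitbody replicates, and to 163, 132 and 114 without those mycelium replicates.

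Small RNA rose in a larger part of the CG-methylated genes than of the other genes. Of 273 tested genes with over 10% methylation in mycelium, 110 (40.3%) rose and 5 (1.83%) fell. Of 4382 tested genes at or under 10%, 54 (1.23%) rose and 591 (13.5%) fell. A gene could pass the read filter through either tissue alone. The risen methylated genes were low in mycelium, so the percent that rose depends on the filter. With no filter, 163 of 973 methylated genes (16.8%) rose and 8 fell, against 75 (0.709%) and 529 of 10579 others. With a limit of 50%, 105 of 212 methylated genes rose and 2 fell. Methylated genes thus made up 67.1% of the risen genes with a methylation value, but 38.9% with TMM inside the gene table, 42.0% with TMM over both tables, 36.96% with DESeq2 size factors and 34.4% without replicate 1 of every group. With TMM inside the gene table, 121 of the 273 methylated genes rose and 1 fell, against 190 and 359 of the 4382 others. Without mycelium replicate 1, 96 of the 273 rose and 11 fell. The median log2 fold change was 1.31 for the methylated genes and -0.83 for the others, and 2.06 and -0.08 with TMM inside the gene table.

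The methylated genes that rose carried almost no messenger RNA, as did most tested methylated genes. A mean of under 1 RPKM (reads divided by gene length in kb and by library size) in both tissues was found in 105 of the 110 and in 222 of all 273 tested methylated genes. Over all 172 genes that rose, median methylation was 63.1% in fruitbody and 60.8% in mycelium. Fruitbody methylation was above every mycelium library in 12 of the 164 with a value and below in 2, near the 6.12% and 2.43% of all tested genes. The median small RNA of the 110 genes was 52.7, 94.0 and 36.7 RPM in the fruitbody libraries, against 7.57, 9.29 and 6.71 RPM in the mycelium libraries.

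The percent of genes that rose was higher close to TE copies, and within methylated and other genes it differed little with distance. Of the tested genes within 1 kb of a TE copy, 22 of 147 (14.97%) rose and 7 (4.76%) fell; of those 1 to 5 kb away, 33 of 311 (10.6%) rose and 32 fell. Beyond 5 kb, 114 of 4244 (2.69%) rose and 556 (13.1%) fell. Among methylated genes, 49 of 114 (43.0%) within 5 kb of a TE copy rose, and 61 of 159 (38.4%) farther away. Among genes at or under 10% methylation, 5 of 337 (1.48%) within 5 kb rose, and 49 of 4045 (1.21%) farther away.

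**Figure D3:**
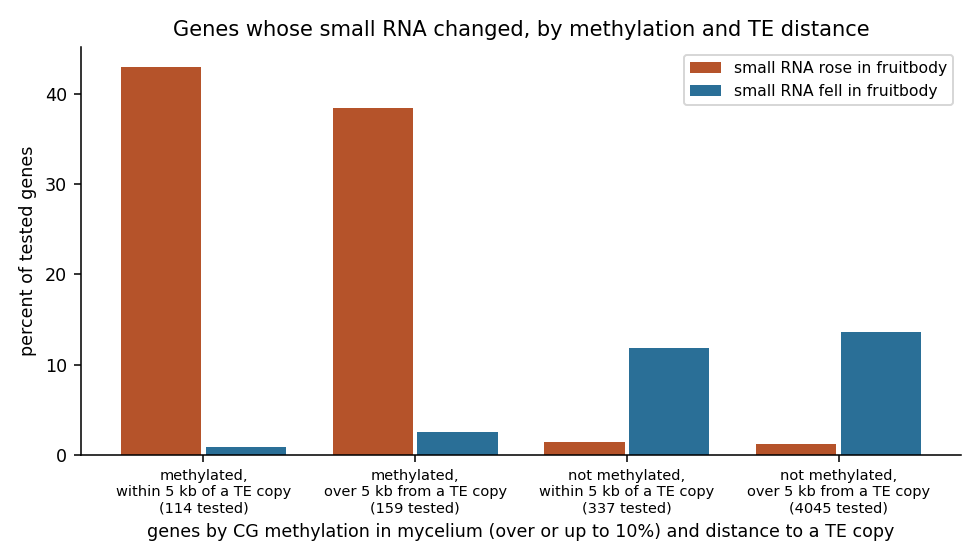
Percent of tested genes whose small RNA rose or fell in fruitbody (vertical axis), for genes split by CG methylation in mycelium (over 10%, or at or under it) and by distance to the nearest TE copy. Risen genes made up 43.0% and 38.4% of methylated genes near to and far from TE copies, and 1.48% and 1.21% of genes that were not methylated.

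Most genes whose small RNA fell had lower messenger RNA in fruitbody as well. Their median mRNA was 21.2 RPKM in fruitbody and 116 RPKM in mycelium, beside 30.7 RPKM in fruitbody and 36.4 RPKM in mycelium over all tested genes. Their median methylation, 0.227% in fruitbody and 0.215% in mycelium, was near the 0.228% and 0.218% of all tested genes. In 517 of the 597 (86.6%) every fruitbody mRNA library lay below every mycelium library, beside 32.4% of 4705 tested genes. Higher mRNA in every fruitbody library was found in 7 of the 597, beside 22.9% of tested genes. The median small RNA of the 597 was 12.4, 10.4 and 12.9 RPM in the fruitbody libraries, against 49.97, 70.3 and 75.1 RPM in the mycelium libraries. The median in fruitbody replicate 2 corresponds to 2 reads, so the size of single falls was poorly determined there.

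The 54 risen genes without methylation also followed their messenger RNA: in 47 of them (87.0%) mRNA was higher in every fruitbody library, beside 1057 (24.1%) of the 4378 tested genes at or under 10% methylation, with a median difference in log2(RPKM + 1) of 4.69. Over the 4378 tested genes at or under 10% methylation, Pearson's r between the small RNA log2 fold change and the difference in log2(RPKM + 1) was 0.74 (Spearman's rho 0.67). Over the 273 methylated genes it was 0.11 (rho 0.01). Of these, 222 had a mean under 1 RPKM in both tissues, which leaves little mRNA difference to follow. Their r is therefore not comparable with that of the other genes. These correlations are across genes of the same libraries and describe them. In genes at or under 10% methylation, small RNA per kb and RPKM were related within each tissue as well (rho 0.58 in fruitbody and 0.76 in mycelium). How much of the small RNA of these genes was fragments of their messenger RNA was not tested.

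**Figure D4:**
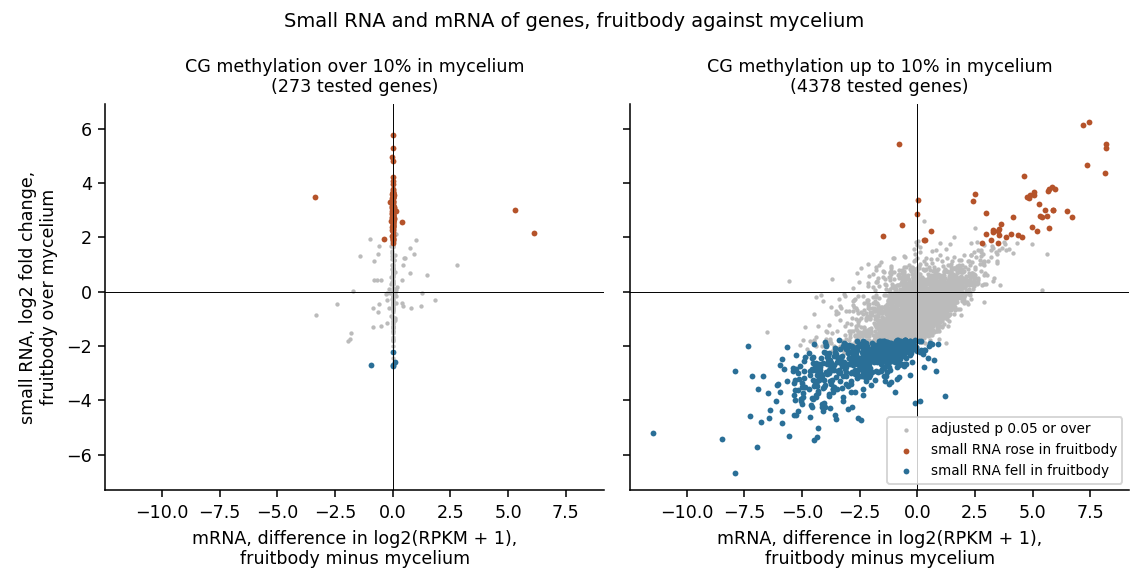
Small RNA log2 fold change of fruitbody over mycelium (vertical axis) against the difference in log2(RPKM + 1) of mRNA, fruitbody minus mycelium (horizontal axis), with a point for each tested gene. The 273 methylated genes (left) spread vertically at an mRNA difference near 0, and 222 of them averaged under 1 RPKM in both tissues. The 4378 other genes (right) lie along a rising band, with r = 0.74.

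Among the 6 largest rises of single genes, 3 had higher mRNA in every fruitbody library, and all 6 genes with the largest falls had lower mRNA in every fruitbody library. Gene 1012126 on scaffold 10, positions 118332 to 119432, had 132, 188 and 130 RPM of small RNA in the fruitbody libraries, against 0, 3.98 and 1.34 RPM in the mycelium libraries. Its log2 fold change was 6.26 ± 0.87 SE (edgeR adjusted p = 7.01e-07), and its mRNA was 840 ± 42.3 RPKM in fruitbody and 4.54 ± 3.56 RPKM in mycelium. Gene 1060293 on scaffold 11, positions 2675833 to 2677213, had 739, 2356 and 1668 RPM in fruitbody, against 36.3, 15.9 and 14.8 RPM in mycelium (6.15 ± 0.88 SE). Its mRNA was 9854 ± 3768 RPKM in fruitbody and 71.6 ± 36.0 RPKM in mycelium.

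Both falls described here came with lower mRNA. Gene 1094726 on scaffold 10, positions 246644 to 247579, had 1.65, 0 and 0 RPM in the fruitbody libraries, against 37.9, 134 and 156 RPM in the mycelium libraries. It had 2 reads over the fruitbody group and 242 over the mycelium group, a ratio of pooled levels of 0.00915 with an exact 95% interval of 0.00110 to 0.0334 that covers counting error only. Its mRNA was 1.67 ± 0.157 RPKM in fruitbody and 670 ± 239 RPKM in mycelium. Gene 1110582 on scaffold 1, positions 2691056 to 2692446, had 4.94, 5.22 and 5.51 RPM in fruitbody, against 115, 307 and 408 RPM in mycelium (-5.71 ± 0.88 SE), with 2.99 ± 0.688 RPKM of mRNA in fruitbody and 499 ± 147 RPKM in mycelium. All 4 genes had under 0.3% CG methylation in both tissues, and the fruitbody and mycelium libraries did not overlap in any of them. The third largest rise came without mRNA: a gene on scaffold 12, positions 166069 to 168807, had 17.3, 47.0 and 36.7 RPM in fruitbody, against 1.51, 0 and 0 RPM in mycelium, was listed at 0 RPKM in every library of both tissues and was 69.6% ± 2.33 methylated in fruitbody and 71.2% ± 1.404 in mycelium.

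The genes with the most small RNA were methylated and silent, except for 1, and none of them had an adjusted p under 0.05 by edgeR. Gene 165473 held the most in both tissues, 80090 ± 10216 RPM in fruitbody and 66148 ± 10695 RPM in mycelium; it lies on scaffold 2, positions 1607518 to 1608736, inside the TIR1 copy described above, so that its reads may stand in both tables. Gene 168622 on scaffold 6, positions 2530786 to 2534571, had 43450, 47030 and 44703 RPM in the fruitbody libraries, against 28474, 26432 and 25691 RPM in the mycelium libraries (edgeR adjusted p = 0.519). Gene 157625 on scaffold 5, positions 3542964 to 3544556, had 35254, 41508 and 37251 RPM in fruitbody, against 22666, 25289 and 25128 RPM in mycelium (adjusted p = 0.568). These 3 genes were 75.6% to 87.2% methylated on average in either tissue, with under 0.1 RPKM of mRNA. Gene 167791 on scaffold 5, positions 3183328 to 3185020, was the exception, with 0.242% methylation in fruitbody and 0.261% in mycelium and overlapping small RNA levels of 35254 ± 13481 RPM in fruitbody and 30241 ± 8687 RPM in mycelium.

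The small RNA of genes was more concentrated in fruitbody, and that of TE copies was not clearly so. The 10 highest genes of each library held 47.1% ± 1.96 of gene reads in fruitbody and 31.8% ± 3.86 in mycelium, without overlap. The genes outside each library's 10 highest summed to 329464 ± 24824 RPM in fruitbody and 474978 ± 30255 RPM in mycelium, likewise without overlap. The 10 highest TE copies held 66.4% ± 3.43 of TE reads in fruitbody and 60.9% ± 6.87 in mycelium, with overlap, and the highest copy alone held 27.1% ± 3.42 in fruitbody and 27.9% ± 2.76 in mycelium. By 100 kb windows of the scaffolds, 349 in all, the 5 windows with the most reads held 43.5%, 41.7% and 41.3% of reads in the fruitbody libraries, against 35.1%, 24.5% and 23.2% in the mycelium libraries. These window percents left out 95 nested TE copies and were not percents of the full gene plus TE totals. A pair of adjacent windows on scaffold 6, positions 2500001 to 2700000, held 75343 ± 1529 and 75272 ± 9204 RPM in fruitbody, against 47064 ± 3110 and 39813 ± 16285 RPM in mycelium, and were higher in every fruitbody library. They contain gene 168622 and also gene 168614, at positions 2668218 to 2670360, which had 40457, 36231 and 32442 RPM in fruitbody, against 29025, 13158 and 12665 RPM in mycelium, and was listed at 0 RPKM in both tissues.

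More TE copies and fewer genes were detected in fruitbody at equal depth. After every library was thinned to 191411 reads, 686, 631 and 633 TE copies had a read in the fruitbody libraries, against 583, 617 and 615 in the mycelium libraries. Genes with a read numbered 7761, 7731 and 8304 in fruitbody, against 8424, 8748 and 8723 in mycelium. The groups did not overlap in either count. As deposited, 854, 631 and 734 TE copies had a read in fruitbody, against 697, 745 and 730 in mycelium, which overlap.

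The primordium libraries entered the fit only through the shared estimate of spread. Over 4988 genes and TE copies not chosen by a call, their log2 levels correlated with the fruitbody mean at Pearson's r of 0.868 to 0.878, against 0.640 to 0.742 for the mycelium libraries; these values describe the libraries. Over all 273 tested methylated genes the median levels were 21.2, 19.9 and 20.1 RPM in mycelium, 43.2, 31.9 and 33.1 RPM in primordium and 46.9, 67.9 and 34.9 RPM in fruitbody. Over all 4382 tested genes at or under 10% they were 33.3, 35.8 and 37.6 RPM in mycelium, 33.4, 18.2 and 18.04 RPM in primordium and 18.9, 15.7 and 23.9 RPM in fruitbody. Tested genes had passed a read filter on the fruitbody and mycelium libraries, and a gene could pass through either tissue alone. The filter thus bears on the gap between these tissues and on the place of primordium, so these medians are descriptive.

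The called genes were chosen for a difference between these mycelium and fruitbody libraries, so the place of primordium between them is given as a description with no test. The 110 methylated genes that rose between fruitbody and mycelium had median levels of 7.57, 9.29 and 6.71 RPM in mycelium, 41.3, 29.6 and 28.6 RPM in primordium and 52.7, 94.0 and 36.7 RPM in fruitbody. The 54 risen genes without methylation had 10.6, 7.96 and 9.39 RPM in mycelium, 80.6, 59.2 and 64.6 RPM in primordium and 73.7, 54.9 and 64.3 RPM in fruitbody. The 591 fallen genes without methylation had 49.97, 69.0 and 75.1 RPM in mycelium, 23.6, 13.7 and 12.03 RPM in primordium and 12.4, 10.4 and 12.9 RPM in fruitbody. TE copies took 31.3%, 39.5% and 39.6% of reads in primordium, the first of which was close to the mycelium libraries (29.6% to 30.8%).

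**Figure D5:**
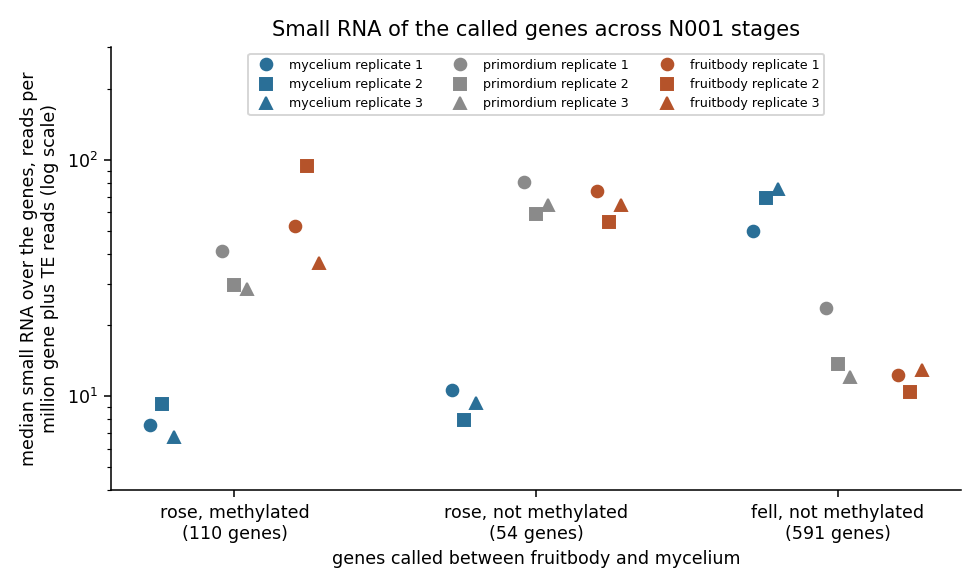
Median small RNA level, in RPM (log scale), of the 110 methylated and 54 other genes that rose and of the 591 genes that fell, in each mycelium, primordium and fruitbody library; symbols mark the replicates. The choice of genes fixes the gap between mycelium and fruitbody and so bears on where primordium lies beside them; the primordium medians are 28.6 to 41.3, 59.2 to 80.6 and 12.03 to 23.6 RPM in the 3 sets.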

How the data were processed

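Small RNA values were deposited as raw read counts per gene and per TE copy, per the file headers; their aligner, counting program and genome build are not given in the sources used here. Gene mRNA was deposited as RPKM and TE mRNA as counts, per the file headers, with FastQC and STAR 2.3.16 per the submitters' processing notes. CG methylation was deposited as a fraction, per the file headers, with BS-Seeker2 per the submitters' processing notes, and was multiplied to percent; its coverage is unknown. TE mRNA was scaled to library totals of about 22310893 to 30123574 reads recovered from the RPKM values, of which 95.4% to 95.6% came out whole within 0.01 reads.

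Genes and TE copies were fitted apart by edgeR 4.0.16 (R 4.3.3) in all 18 small RNA libraries and 6 groups, with gene plus TE totals as library sizes, no TMM and filterByExpr on the 6 libraries compared. Tests were two-sided with a threshold of 0.05. They were also run on simulated counts with a fixed spread that was not estimated from these libraries. That run does not show how the tests perform on these data. DESeq2 1.42.0, TMM, other filters, thinning, a replicate block and leaving out libraries were alternatives. The groups, members and lists were chosen with earlier results of these data known. Named features were the 6 genes with the largest rise and fall, of which 2 each are named by number, the 6 copies and 4 genes with the highest mean in each group, and families of at least 1% of reads; others are said to be chosen after their values were seen. Counting floors cover counting error only. P-values measure the spread between libraries.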

Additional observations from a re-analysis of the deposited data

How the results depend on the processing

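Counts of calls depended on scaling and on the libraries fitted, and they also moved after thinning. The TE share and each gene among the 6 largest rises and the 6 largest falls kept their direction under every alternative that gave a value. The 6 class differences did so when libraries or overlapping genes were left out, but the fruitbody to mycelium ratio of TIR turned to 0.941 and 0.899 with TMM and DESeq2 scaling inside the TE table, and that of LINE to 1.21 with TMM over both tables. For TE copies, against 0 by edgeR, DESeq2 on totals called 13 (9 higher, 4 lower), DESeq2 with its own size factors 26 (14 and 12), libraries thinned to equal depth 13 (12 and 1) and the libraries without replicate 1 of every group 89 (64 and 25). Leaving out 1 library gave 0 to 1 calls. For genes, against 172 higher and 597 lower, the counts were 381 and 362 with DESeq2 size factors, 322 and 360 with TMM inside the table, 311 higher with TMM over both tables, 84 higher after thinning, 1784 in all with 1545 lower when only the 6 libraries were fitted, and 2096 in all (431 and 1665) without replicate 1 of every group. Leaving out 1 library gave 413 to 709 calls, 114 to 163 higher and 277 to 546 lower; fewer samples enter these fits. Thinning left 310 TE copies and 1421 genes to test, against 502 and 4711, and was fitted in the 6 libraries alone. Its 84 higher and 561 lower genes therefore do not show the effect of depth by itself. The cause of the other shifts was not tested.

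Of genes that rose, 67.1% were methylated; this was 36.96% with DESeq2 size factors, 42.0% with TMM over both tables, 38.9% with TMM inside the table, 57.7% after thinning, 58.9% with the 6 libraries alone, 34.4% without replicate 1 of every group and 61.9% to 74.0% leaving out 1 library. Under every alternative the percent of tested genes that rose was higher among methylated genes (16.8% to 52.7%) than among the others (0.709% to 6.28%). Of genes that fell, 86.6% had lower mRNA throughout; this was 82.2% with DESeq2 on totals, 90.9% with DESeq2 size factors, 89.6% and 90.6% with TMM over both tables and inside the table, 62.6% after thinning, 90.0% with no filter, 64.5% with the 6 libraries alone, 55.5% without replicate 1 of every group and 85.7% to 93.4% leaving out 1 library. With at least 5 reads per gene the thinned gene number was lower in fruitbody by a mean difference of -1237, against -700 with 1 read.

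Log2 fold changes near 0 changed sign for the TIR1 copy on scaffold 2 (-0.14 with TMM inside the table), for the Gypsy_7 copy on scaffold 3 at positions 1037823 to 1045635 (0.07 as fitted; -0.40 with DESeq2 size factors, -0.34 with TMM inside the table, -0.25 without replicate 1 of every group, -0.17 to 0.25 leaving out 1 library) and for gene 167791 (-0.051 without fruitbody replicate 3 and up to 0.49 leaving out another library). Replicate numbers did not pair the libraries: deviations of same-numbered fruitbody and mycelium libraries correlated at -0.006, 0.008 and 0.036. With the replicate number as a block 0 TE copies and 724 genes (174 higher, 550 lower) were called. Alternatives without replicate 1 of every group, and totals without genes that overlap a TE copy, were chosen after seeing the data. Depth limits the size of falls: 3 reads are 15.7 RPM in fruitbody replicate 2, where the median level of the fallen genes was 10.4 RPM.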

Other observations

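The genes below were picked for description after their values were seen. A gene on scaffold 3, positions 230431 to 234352, had 242, 742 and 976 RPM of small RNA in the fruitbody libraries, against 18.2, 14.6 and 12.1 RPM in the mycelium libraries (log2 fold change 5.44 ± 0.83 SE, edgeR adjusted p = 2.24e-06). It was 0.275% methylated in fruitbody and 0.201% in mycelium, and its mRNA was lower in fruitbody, at 2.20 ± 0.581 RPKM against 4.56 ± 0.295 RPKM in mycelium. In primordium it had 45.2, 542 and 550 RPM of small RNA.

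A gene of 2342 bp on scaffold 6, positions 2535140 to 2537481, close to gene 168622, had 77.4, 251 and 73.5 RPM in fruitbody, against 1.51, 5.31 and 1.34 RPM in mycelium (log2 fold change 5.496 ± 0.90 SE, edgeR adjusted p = 1.07e-05). It was listed at 0 RPKM in both tissues and has no methylation value. Its primordium levels of 9.82, 4.55 and 12.03 RPM were below every fruitbody library.

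The 5 methylated genes whose small RNA fell had median levels of 46.1, 26.1 and 29.4 RPM in the fruitbody libraries, against 109, 336 and 369 RPM in the mycelium libraries, and 4 of them had under 1 RPKM of mRNA in both tissues. HELPO1.1, with 3 copies, was the TE family lower in every fruitbody library, at 76.6, 57.5 and 79.0 RPM in fruitbody, against 135, 166 and 180 RPM in mycelium.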
